A study of Rattus norvegicus with 48 samples.

Results

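The miRNAs of the rat proximal tubule were compared with those of the thick ascending limb, the salt-transporting part of Henle's loop, within the same animals. The comparison takes 24 of the 44 sequencing runs of the deposited table (the series has 48), chosen by their label for kidney region (Proximal Tubule, or Thick Henle Loop for the thick ascending limb) and not by any measured value. They are 12 runs of each segment, which make 3 libraries of each, one from each of 3 rats, each read on 4 flow cells. All 188 mature miRNAs of the table were compared. Both groups came from the kidneys of untreated (naive) male Sprague-Dawley rats, 6 months old, and share strain, age and absence of any agent. Tubules were cut by laser capture from frozen sections of 8 µm, the proximal ones under an antibody to glutathione S-transferase and those of the thick ascending limb under an antibody to Tamm-Horsfall protein, so that antibody and segment cannot be told apart. A captured area can hold neighbouring cells, and since the captured tissue was measured in bulk, fewer cells of a type and less RNA per cell cannot be told apart.

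The proximal tubule takes back most of the filtered water, glucose, amino acids and phosphate, and depends on mitochondrial oxidation of fatty acids to do so. The thick ascending limb takes up salt without water and secretes Tamm-Horsfall protein (uromodulin) into the urine. A miRNA is a short RNA cut from an arm of a hairpin. It guides Argonaute proteins to messenger RNAs mainly by pairing through its seed, bases 2 to 8, so that miRNAs with the same seed can bind many of the same messages.

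The sequences below carry the main results. They are RefSeq mature sequences of the GRCr8 assembly, matched by name, written 5′ to 3′ with the seed in capitals, and 172 of the 188 miRNAs had an entry. The pair at the top had the smallest adjusted p-values. The next 3 lie on chromosome 6 in the imprinted Dlk1-Dio3 region and had the largest differences on the log2(value + 1) scale.
miR-192-5p: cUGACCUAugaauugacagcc
miR-194-5p: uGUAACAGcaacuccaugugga
miR-411-5p: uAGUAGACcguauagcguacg
miR-541-5p: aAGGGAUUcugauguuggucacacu
miR-409b: aGGGGUUCaccgagcaacauucg

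The following sets share a seed and are shown because their members moved together (let-7, miR-103 and miR-107) or apart (miR-181, miR-25/92) on the deposited scale. Of the 9 miRNAs with the let-7 seed only the 4 called higher are shown. let-7c-5p, let-7e-5p and let-7i-5p, not shown, changed direction under at least 1 rescaling. Of the 4 with the miR-181 seed only the called ones are shown. Counted from 1 at the 5′ end, let-7b-5p differs from let-7a-5p by A17G and A19G, let-7d-5p by U1A and U16C, and let-7g-5p by G12U and U18C. miR-107-3p differs from miR-103-3p only by G22C.
let-7a-5p: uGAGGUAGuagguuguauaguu
let-7b-5p: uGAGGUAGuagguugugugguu
let-7d-5p: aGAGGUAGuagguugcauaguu
let-7g-5p: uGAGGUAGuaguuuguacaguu
miR-103-3p: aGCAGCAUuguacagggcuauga
miR-107-3p: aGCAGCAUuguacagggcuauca
miR-181b-5p: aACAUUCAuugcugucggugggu
miR-181c-5p: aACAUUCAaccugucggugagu
miR-92a-3p: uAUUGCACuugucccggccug
miR-25-3p: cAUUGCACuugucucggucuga
miR-92b-3p: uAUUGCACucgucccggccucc

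Values are the authors' TMM-normalized values (scaled by the trimmed mean of M-values, which sets the libraries on a common scale) and are averaged here within each library. Judged by the smallest value steps, which stand for single reads, the libraries of rats 1, 2 and 3 held 544752, 914254 and 241314 miRNA reads in the proximal tubule and 218882, 321577 and 1296993 in the thick ascending limb. For 62 miRNAs with a mean value of at least 100, the log2 values of repeat runs had a median SD of 0.13, those of the 3 rats one of 0.28 for proximal tubule and 0.34 for thick ascending limb. Spearman correlations across miRNAs, which are not independent replicates, were 0.897 to 0.939 among proximal tubule libraries, 0.930 to 0.944 among thick ascending limb libraries and 0.841 to 0.899 between the segments.

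Differences are log2(value + 1) in the proximal tubule minus that in the thick ascending limb, tested within rats by limma with Benjamini-Hochberg adjustment over all 188 miRNAs and called at an adjusted p below 0.05. They understate the change of miRNAs with low values. Unless marked SD, the figure after ± is limma's moderated SE, drawn partly from the variance of the other miRNAs. It is not the spread between the 3 rats. By this test 29 miRNAs were higher in the proximal tubule (15.4% of those tested) and 3 were lower (1.6%), which makes 32 calls. Each call had the same sign in 3 of 3 rats, which selection by a within-rat test favours. Of all 188 miRNAs, 71 were higher and 19 lower in 3 of 3 rats. The values of the 2 segments did not overlap for 31 of the 32 calls. Over all miRNAs, 52 had every proximal tubule library above every thick ascending limb library (27.7%) and 7 had every one below (3.72%). Both means were at least 100 for 19 of the called miRNAs. With 3 pairs, an exact permutation test of a single miRNA cannot go below p = 0.25, so the calls rest on the variance that limma shares across miRNAs.

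**Figure D1:**
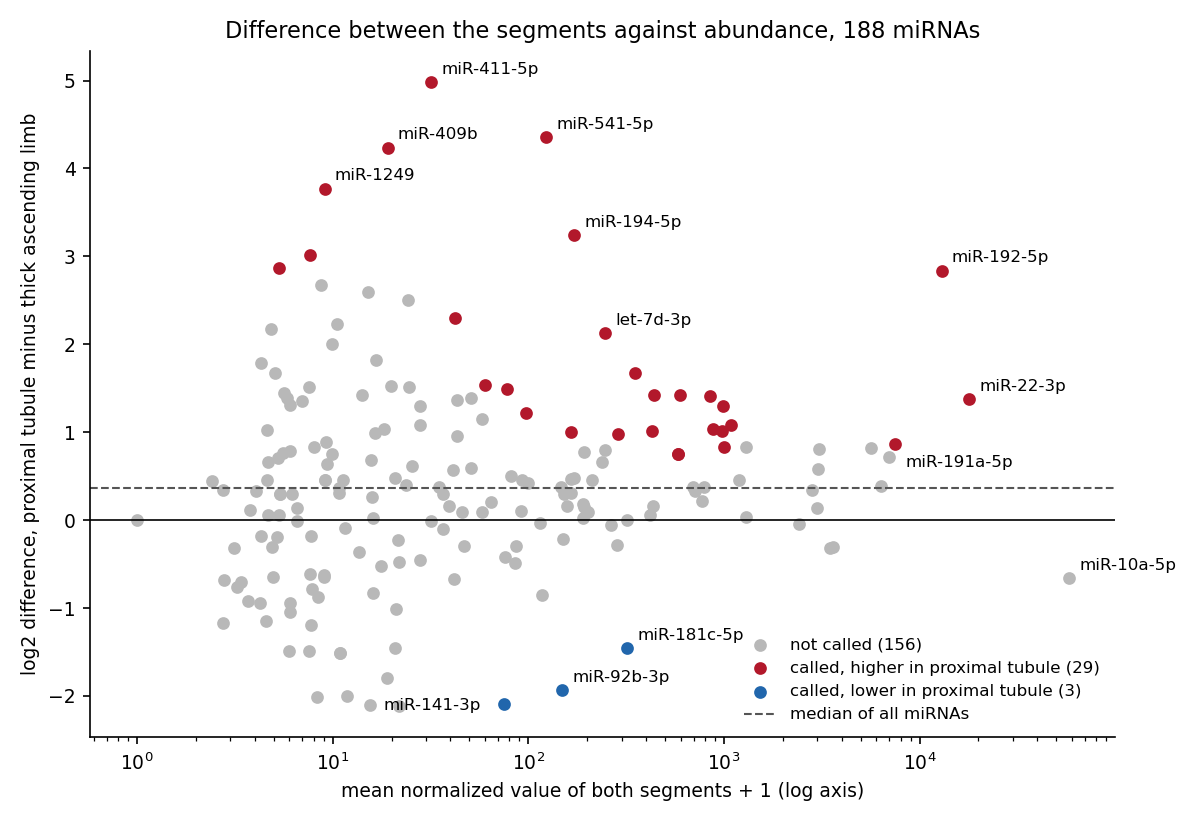
Log2 difference between the segments (y axis, proximal tubule minus thick ascending limb) against the mean normalized value of both segments plus 1 (x axis, log scale), 1 point per miRNA. The 29 miRNAs called higher lie above the dashed line at the median of all miRNAs, 0.37, and the 3 called lower lie below 0.

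The balance of higher and lower calls depends on the scale. On the deposited values 60 of the 188 miRNAs had a difference below 0, and the median of all was 0.37, with 0.18 when rat 2 was left out and 0.53 without rat 3. The median became −0.07 when the libraries were rescaled by the median of ratios, 0.07 when they were set to the same total and −0.06 after quantile normalization. The calls then split into 14 higher and 7 lower, 18 and 6, and 11 and 8. Called under the deposited scale and all 3 others were miR-541-5p, miR-411-5p, miR-409b, miR-1249, miR-194-5p, miR-192-5p, let-7d-3p, miR-181b-5p, miR-28-3p and miR-3586-3p among the higher ones, 10 in all. Among the lower ones these were miR-92b-3p and miR-181c-5p, 2 in all. Every miRNA called higher also exceeded the median of 0.37.

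miR-192-5p and miR-194-5p, which are known to be abundant in kidney, liver and gut epithelium, had the smallest adjusted p of the comparison. The value of miR-192-5p was 21065, 26006 and 20806.5 in the proximal tubule of rats 1, 2 and 3, against 2146, 4246 and 3401 in the thick ascending limb. The lowest proximal tubule library thus lay far above the highest of the other segment. The difference was 2.84 ± 0.24 (log2, limma's moderated SE, n = 3 rats), or 7.15-fold (limma, adjusted p = 0.0016). miR-194-5p stood at 233, 360.4 and 323.5 against 35.4, 33.8 and 30.5, a difference of 3.24 ± 0.30, or 9.44-fold (limma, adjusted p = 0.0016). The thick ascending limb libraries were close together and none came near the proximal tubule. Mir192 and Mir194-2 lie within 294 bp on chromosome 1 (miR-192-5p at chr1:212994232-212994252 and miR-194-5p at chr1:212994038-212994059, both on the plus strand). The same mature miR-194-5p is also encoded by Mir194-1 on chromosome 13, within the span of Iars2, and the values do not separate the loci. Both measured members of this group were called higher, beside 15.4% of all miRNAs, and their median difference was 3.04. miR-215 was not analysed here.

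**Figure D2:**
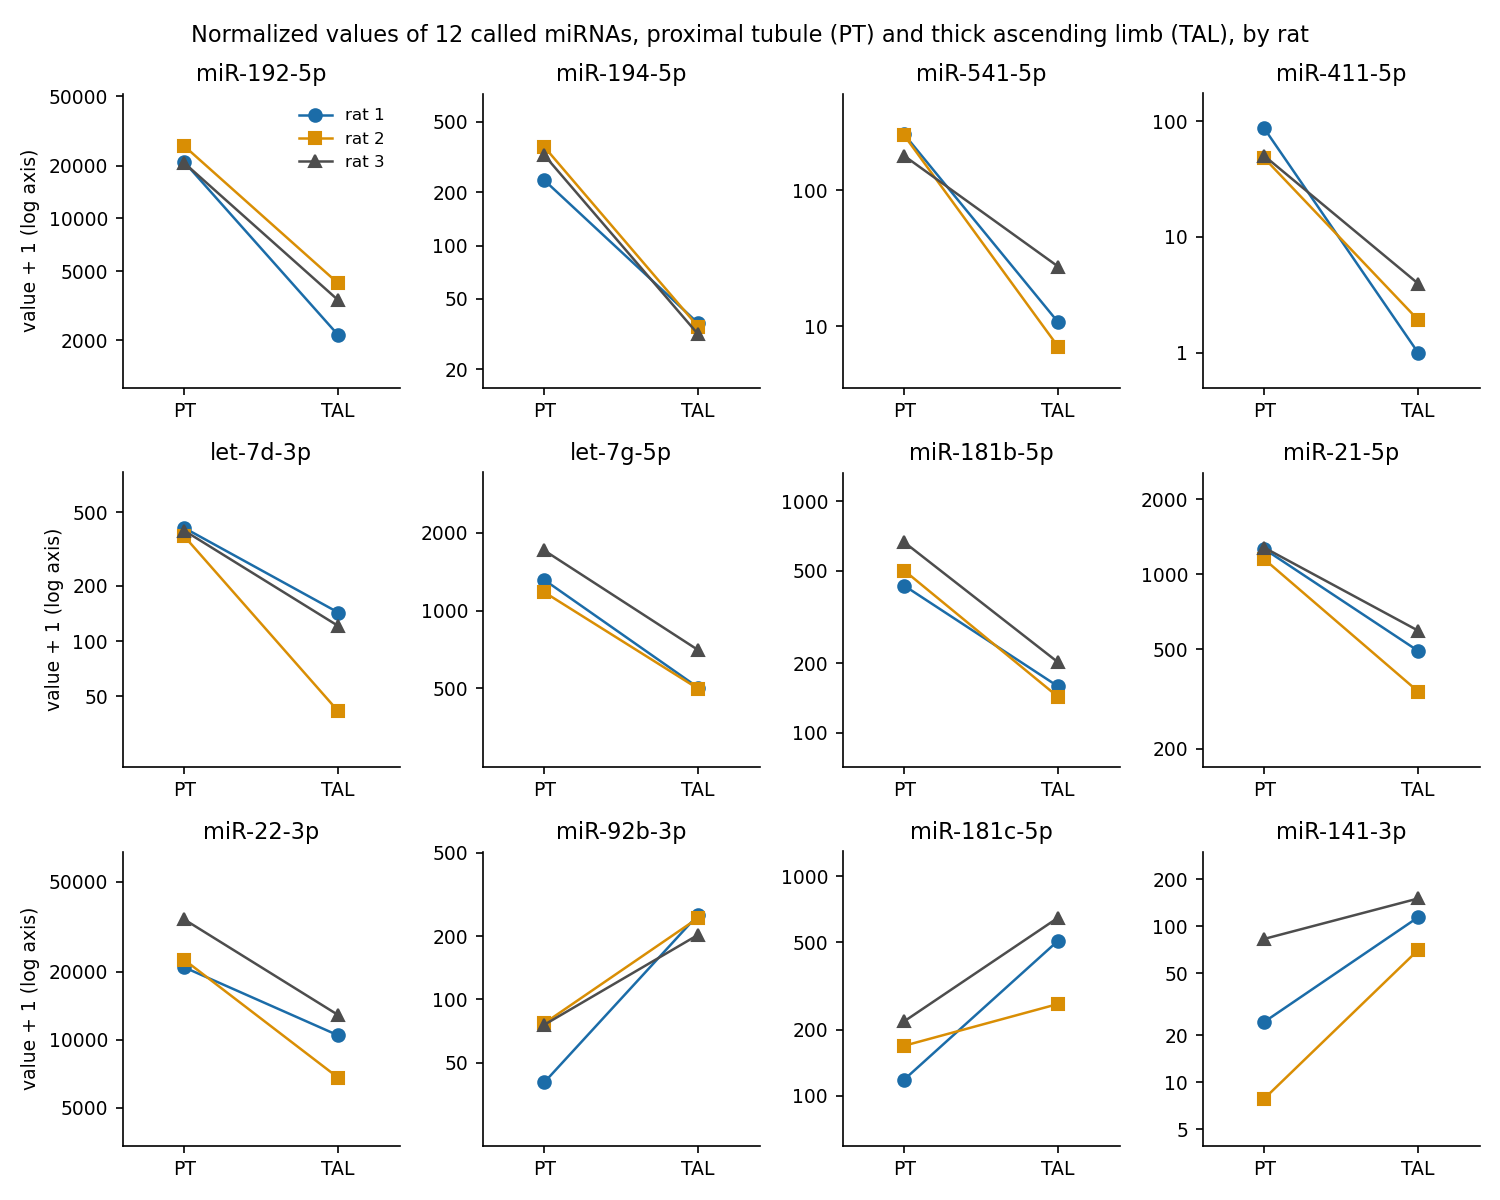
Normalized value plus 1 (y axis, log scale) of 12 called miRNAs in the proximal tubule (PT) and thick ascending limb (TAL), with a line for each of the 3 rats. In the first 9 panels every line falls from PT to TAL, and in the panels of miR-92b-3p, miR-181c-5p and miR-141-3p every line climbs.

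Imprinted Dlk1-Dio3 miRNAs gave the 3 largest differences on the log2(value + 1) scale, which understates miRNAs listed at 0 in a segment, such as miR-1249. The region encodes a long row of miRNAs transcribed from the maternal chromosome and best known from placenta, brain and embryonic tissues. Of its 5 measured miRNAs, 4 were higher in the proximal tubule and 1 was not called, beside 15.4% higher and 1.6% lower over all miRNAs. Their median difference was 4.24 against 0.37 for all miRNAs. The authors filtered low values, so a miRNA near 0 in the thick ascending limb can have been kept only through groups where it was higher. The 4 of 5 and this median therefore describe the miRNAs kept and not the region. miR-541-5p, the most abundant of the 4, had values of 257, 253 and 178 in the proximal tubule and 9.67, 6.05 and 26.4 in the thick ascending limb (4.35 ± 0.58, limma adjusted p = 0.0058). miR-411-5p stood at 85.7, 47.0 and 49.2 against 0, 0.922 and 2.96 (4.98 ± 0.81, limma adjusted p = 0.011). miR-409b stood at 44.9, 35.5 and 24.7 against 0, 1.73 and 1.65 (4.24 ± 0.80, limma adjusted p = 0.018). For each of the 3, every thick ascending limb library lay below the lowest proximal tubule library.

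miR-300-3p was low in the proximal tubule, at 5.62, 11.2 and 8.98, and at 0 in every thick ascending limb run. The difference was 2.87 ± 0.64 (limma, adjusted p = 0.030). The proximal tubule mean was 36.7 times 0.234, the value of 3 reads over the pooled thick ascending limb runs. Rat 3 gave 1296993 of the 1837452 pooled reads, so the bound within any single rat is lower. This floor covers counting error only. The exception was miR-127-3p of the same region, at 11.8, 5.48 and 102.6 in the proximal tubule and 7.31, 4.42 and 109 in the thick ascending limb. Both segments of rat 3 were high and those of the other 2 rats low, and the segments did not differ by the test (0.57 ± 0.66, limma adjusted p = 0.66); its direction turned on flow cells A and B alone and after quantile normalization. miR-409b lies on the minus strand at chr6:134579229-134579251, and 20 of its 23 bases are the reverse complement of miR-409a-3p. Where strand was not used in counting, the reads of miR-409b cannot be told apart from those of this partner. Among the measured miRNAs, 4 pairs of reverse complements hold identical values in every run. The sequence printed for miR-409b may thus not be that of its reads.

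Several miRNAs of low value were also higher in the proximal tubule. miR-1249, within the span of Kiaa0930, was at 5.95, 27.9 and 14.7 there and at 0 in every thick ascending limb run (3.77 ± 0.74, limma adjusted p = 0.018). Its proximal tubule mean was 69.0 times the pooled floor of 0.234, and the bound within any single rat is lower. miR-342-5p, within the span of Evl, stood at 24.05, 5.65 and 8.95 against 0, 1.19 and 0 (3.02 ± 0.79, limma adjusted p = 0.043). Its partner arm miR-342-3p gave a similar difference, 2.60 ± 0.72, just outside the threshold (limma, adjusted p = 0.052). miR-339-3p stood at 84.8, 70.2 and 50.4 against 13.2, 9.43 and 18.4 (2.29 ± 0.53, limma adjusted p = 0.034), and its partner miR-339-5p differed by 1.51 ± 0.59 (limma, adjusted p = 0.15). One read was worth between 2.14 and 5.87 in the runs of the shallowest thick ascending limb library, that of rat 1, so a value of 0 there does not show absence.

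The let-7 family, which promotes differentiation and is among the most abundant families of adult tissues, was higher in the proximal tubule for 5 of its 14 measured arms, with 9 not called and none lower, beside 15.4% higher and 1.6% lower over all miRNAs. All 14 differences were above 0 on the deposited scale, with a median of 0.71. Of the 14, let-7a-1-3p and let-7c-2-3p have the same mature sequence and low values. In rat 3 both were lower in the proximal tubule (−1.47 and −0.61). The number above 0 became 11, 13 and 10 under the median of ratios, the same total and quantile normalization, and the number called 2, 4 and 1. let-7g-5p had the clearest difference among the guide strands, at 1313, 1176 and 1706 in the proximal tubule against 502.8, 498 and 702 (1.30 ± 0.17, limma adjusted p = 0.0058). let-7d-5p stood at 960.3, 1180.1 and 1393 against 642, 414 and 679 (1.04 ± 0.23, limma adjusted p = 0.028). let-7b-5p stood at 1118, 1408 and 1398 against 691, 568 and 672.9 (1.02 ± 0.20, limma adjusted p = 0.018). None of these overlapped between the segments.

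let-7a-5p was higher by less, 0.75 ± 0.18, at 621, 677 and 907 against 399, 404 and 499 (limma, adjusted p = 0.035). Its column is identical in every run to that of miR-3596a, whose RefSeq sequence is its exact reverse complement over 22 bases (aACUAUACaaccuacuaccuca), so both names hold 1 measurement. The table has 4 such identical pairs, and counting each once leaves 184 distinct columns. Without the second name of the pair, the reported calls are 28 higher and 3 lower, and a new fit on the 184 columns called 27 higher and 3 lower. Among the guide strands not called, let-7f-5p differed by 0.58 ± 0.18 (limma, adjusted p = 0.078), miR-98-5p by 0.50 ± 0.34, let-7e-5p by 0.38 ± 0.18, let-7c-5p by 0.34 ± 0.20 and let-7i-5p by 0.22 ± 0.24. The last 3 lay near or below the median of all miRNAs and changed direction under at least 1 rescaling. The summed value of the 9 miRNAs with the seed GAGGUAG differed by 0.49, 0.80 and 0.61 in rats 1, 2 and 3, a mean of 0.63 ± 0.15 (SD).

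The other arm of the let-7d hairpin differed more than its partner. let-7d-3p stood at 410.8, 369.9 and 397 in the proximal tubule against 141.9, 40.5 and 119.7 (2.13 ± 0.36, or 4.37-fold, limma adjusted p = 0.011). The rat 2 library of the thick ascending limb was the lowest, and all 3 lay well under the proximal tubule. Of the 33 hairpins with both arms measured, let-7d was the only one with both arms called, and 8 had 1 arm called. The arms of miR-28 and miR-21 differed alike: miR-28-3p by 1.42 ± 0.20 and miR-28-5p by 1.39 ± 0.40, and miR-21-5p by 1.41 ± 0.20 and miR-21-3p by 1.30 ± 0.66. The less abundant arm was not called in either hairpin (limma, adjusted p = 0.055 for miR-28-5p and 0.24 for miR-21-3p).

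**Figure D3:**
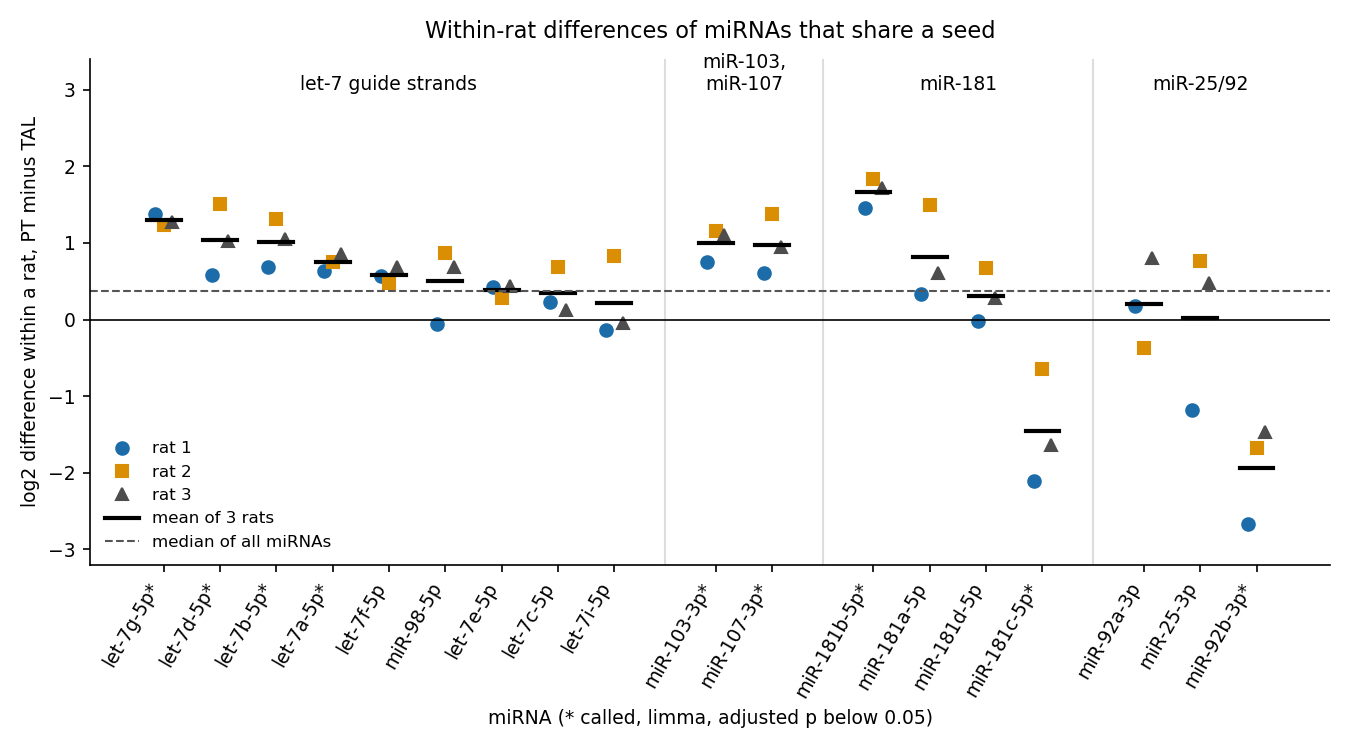
Log2 difference within each rat (y axis, PT minus TAL; points by rat, bar for the mean of 3 rats) for the miRNAs of 4 seed groups, with an asterisk for called miRNAs and a dashed line at the median of all miRNAs. On the deposited scale the let-7, miR-103 and miR-107 means all lie above 0, while miR-181b-5p and miR-181c-5p lie on opposite sides of 0 in every rat, and miR-92b-3p lies below both other members of its group in every rat.

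miR-103-3p and miR-107-3p, known for regulating insulin sensitivity and encoded within the spans of the pantothenate kinase genes Pank2 and Pank1, were both higher in the proximal tubule. miR-107-3p stood at 311, 388 and 446 against 203.2, 149.5 and 230.4, and miR-103-3p at 167, 217 and 276 against 98.6, 98.4 and 126.8. Every proximal tubule library was above every thick ascending limb library for both. The differences were 0.98 ± 0.23 and 1.01 ± 0.24 (limma, adjusted p = 0.035 for each), and their summed value differed by 0.99 ± 0.31 (SD over 3 rats). Neither was called after the median of ratios or quantile normalization, where their median difference was 0.52 and 0.58.

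miR-181 members with the same seed went in opposite directions. miR-181b-5p was higher in the proximal tubule, at 430.96, 501 and 664 against 158, 141.9 and 200.4 (1.67 ± 0.21, or 3.18-fold, limma adjusted p = 0.0058). miR-181c-5p was lower, at 118, 168 and 218 against 509, 261.3 and 648 (−1.46 ± 0.31, limma adjusted p = 0.025), which makes the thick ascending limb 2.75-fold higher. No library overlapped for either, and the sign was the same in all 3 rats. miR-181a-5p, far more abundant than both, differed by 0.81 ± 0.26 (limma, adjusted p = 0.081), and miR-181d-5p, from the hairpin next to miR-181c within 265 bp on chromosome 19, by 0.31 ± 0.25 (limma, adjusted p = 0.48; −0.16 after the median of ratios). The other arm miR-181c-3p was at 6.60, 6.00 and 7.47 against 43.2, 7.97 and 37.1 (−1.80 ± 0.83, limma adjusted p = 0.23). The miR-181 family, best known from lymphocytes, thus had 1 member higher, 1 lower and 4 not called of 6. Over all miRNAs 15.4% were called higher and 1.6% lower. Beyond the seed, miR-181b-5p and miR-181c-5p differ at 12 of the positions they share when laid end to end from the 5′ base without gaps. Their lengths are 23 and 22 bases, and a gap brings much of their 3′ parts into line and leaves fewer differences. The summed value over the 4 members that share the seed ACAUUCA differed by 0.68 ± 0.59 (SD).

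miR-92b-3p gave the smallest adjusted p among the 3 lower miRNAs. It stood at 39.3, 75.9 and 74.7 in the proximal tubule against 252, 243 and 202 in the thick ascending limb, where it was 3.83-fold higher (−1.94 ± 0.32, limma adjusted p = 0.011). The seed is that of miR-92a-3p and miR-25-3p, whose differences were 0.20 ± 0.38 and 0.02 ± 0.40 (limma, adjusted p = 0.78 and 0.99) and fell below 0 under each of the 3 rescalings. miR-92b-3p differs from miR-92a-3p by U10C and G21C over the bases both have. The summed value of the 3 differed by −0.60 ± 0.77 (SD), with −1.47 in rat 1, −0.32 in rat 2 and a value close to 0 in rat 3. Among the 10 measured miRNAs of the miR-17/92 clusters and their paralogs, 1 was higher, 1 lower and 8 not called, with a median of −0.66, beside 15.4% higher and 1.6% lower over all miRNAs. The higher one was miR-93-5p, within the span of Mcm7 and linked to cell cycle control, at 118, 96.2 and 190.4 against 42.5, 47.2 and 82.0 (1.22 ± 0.30, limma adjusted p = 0.035). This call was lost in 11 of 20 alternatives, with rat as a random effect (limma, adjusted p = 0.052) and without the block among them.

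miR-141-3p, a member of the epithelial miR-200 family that keeps Zeb repressors in check, was lower in the proximal tubule. Its values of 23.4, 6.85 and 81.9 were scattered, against 113, 69.5 and 149.6, and the highest proximal tubule library lay above the lowest of the thick ascending limb. Within each rat the proximal tubule was the lower, by 2.24, 3.16 and 0.87 on the log2 scale (−2.09 ± 0.51, limma adjusted p = 0.035). The call was lost in 9 of the 20 alternatives, among them the fit without the replicate block (limma, adjusted p = 0.16) and that with rat as a random effect (limma, adjusted p = 0.11). Over the alternatives its adjusted p by limma ran from 3.3e-05 to 0.24. The other 4 measured miRNAs of the family were not called, beside 15.4% called higher and 1.6% lower over all miRNAs. miR-200b-3p, at 255, 214.7 and 310.4 against 271, 217 and 315, differed by −0.06 ± 0.20, miR-429 by −0.21 ± 0.26, miR-200a-3p by 0.45 ± 0.41 and miR-200b-5p by −1.49 ± 0.91. miR-200a-3p turned to −0.02 under the median of ratios. The median of the 5 was −0.21.

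The most abundant miRNAs took different shares of the summed value. miR-10a-5p, encoded in a Hox cluster, held 25.3%, 23.004% and 26.9% in the proximal tubule and 49.0%, 48.6% and 49.9% in the thick ascending limb of rats 1, 2 and 3. Its normalized value differed by −0.66 ± 0.31, which did not pass the test (limma, adjusted p = 0.23). miR-22-3p held 14.04%, 13.0% and 16.2% against 7.30%, 5.86% and 7.49%, and its values of 20926, 22602 and 34116 against 10450, 6786 and 12862 were higher in the proximal tubule (1.38 ± 0.26, limma adjusted p = 0.018), though its difference was −0.33 after quantile normalization, which forces the ranks of all libraries onto 1 set of values. miR-192-5p held 14.1%, 14.96% and 9.87% against 1.499%, 3.66% and 1.98%. The 5 most abundant miRNAs of each segment together held 62.8% ± 0.287 in the proximal tubule and 67.4% ± 0.640 in the thick ascending limb (SD, n = 3). They share miR-10a-5p, miR-22-3p, miR-191a-5p and miR-26a-5p, with miR-192-5p in the one and miR-143-3p in the other. The value of miR-143-3p differed by 0.39 ± 0.22 (limma, adjusted p = 0.30) and that of miR-26a-5p by 0.71 ± 0.23 (limma, adjusted p = 0.080), and both also fell below 0 after quantile normalization.

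**Figure D4:**
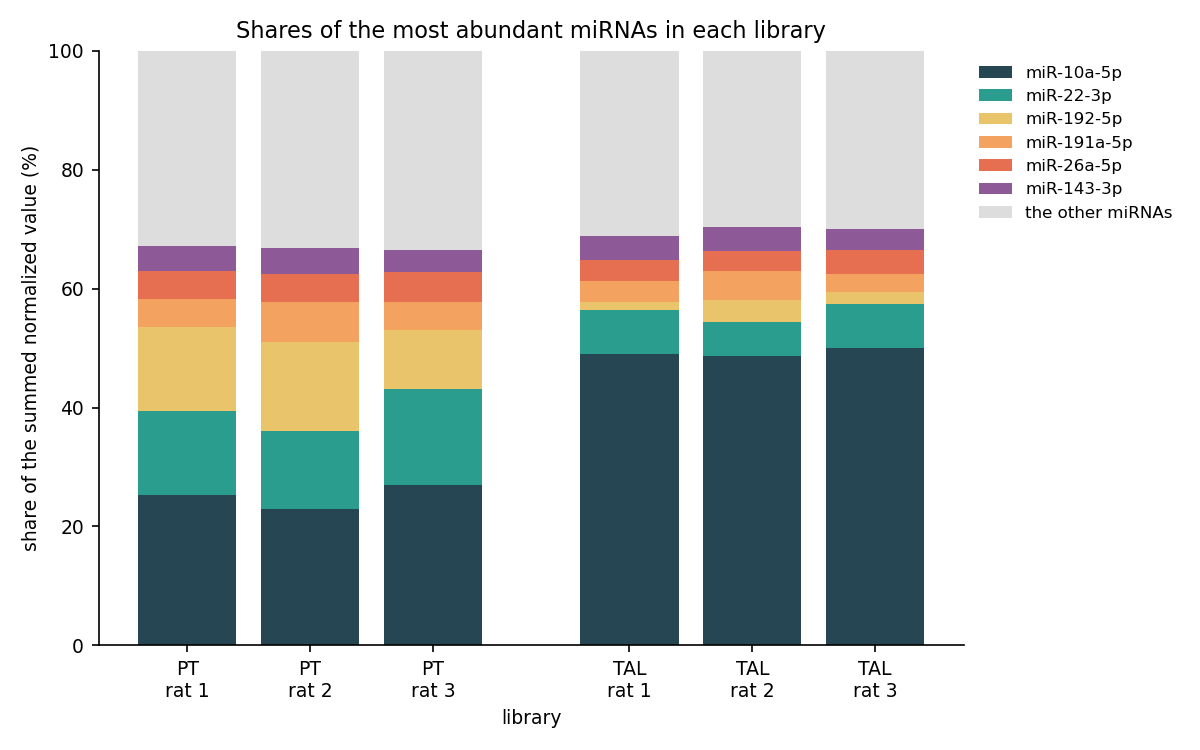
Share of the summed normalized value (y axis, percent) of the 6 miRNAs that make up the 5 most abundant of either segment, in the 3 proximal tubule (PT) and 3 thick ascending limb (TAL) libraries. miR-10a-5p holds 23.004% to 26.9% in PT and 48.6% to 49.9% in TAL, and miR-192-5p 9.87% to 14.96% in PT and 1.499% to 3.66% in TAL.

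Other miRNAs of middle or high abundance were also higher in the proximal tubule. miR-21-5p, known to be induced in kidney injury and fibrosis, stood at 1262, 1149 and 1278 against 492, 338 and 593 (limma, adjusted p = 0.0058). miR-28-3p, within the span of Lpp, stood at 726, 927 and 945 against 331, 284 and 350.99 (limma, adjusted p = 0.0058). For both, the lowest proximal tubule library lay well above the highest thick ascending limb library. miR-3586-3p stood at 604, 605 and 691 against 269, 189.3 and 257 (1.42 ± 0.20, limma adjusted p = 0.0058). miR-151-3p differed by 1.08 ± 0.21 (limma, adjusted p = 0.018), miR-16-5p, a cell cycle regulator within the span of Smc4, by 0.83 ± 0.22 (limma, adjusted p = 0.042) and miR-186-5p, within the span of Zranb2, by 1.01 ± 0.27 (limma, adjusted p = 0.043). miR-676, within the span of Eda on the X chromosome, differed by 1.53 ± 0.42 and was the call nearest to the threshold (limma, adjusted p = 0.048). The calls of these last 3 were often lost: miR-676 in 15 of 20 alternatives, each rat left out among them, miR-186-5p in 13 of 21 and miR-16-5p in 12 of 21. With rat as a random effect miR-186-5p had an adjusted p of 0.058 by limma.

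Neighbouring hairpins were called together in a few places. Of 28 groups of hairpins less than 10000 bp apart that held 2 or more distinct measured miRNAs, 4 held 2 or more calls, 6 held 1 and 18 held none. One of the 4 is the pair of miR-192-5p and miR-194-5p. Mir191 and Mir425 are neighbours on chromosome 8 in the span of Dalrd3, and miR-191a-5p (7199, 11786 and 10091 against 4891, 5688 and 5118) and miR-425-5p (104, 104 and 133 against 54.8, 34.1 and 33.5) were both higher, by 0.86 ± 0.22 and 1.49 ± 0.36 (limma, adjusted p = 0.038 and 0.035). miR-191a-5p turned to −0.11 after quantile normalization. The rare other arm, miR-191a-3p, was not called (1.44 ± 0.72, limma adjusted p = 0.24). Mir541 and Mir3581, the hairpin of miR-409b, lie within 842 bp on opposite strands of chromosome 6 and were both higher. In the cluster of let-7a-1, let-7f-1 and let-7d on chromosome 17, 3 of 5 measured arms were higher. In the cluster of miR-25, miR-93 and miR-106b, 482 bp long on chromosome 12, miR-93-5p was called and the others were not, with 0.78 ± 1.05 for miR-106b-3p and −0.94 ± 0.80 for miR-106b-5p. In the pair of miR-181c and miR-181d only miR-181c-5p was called.

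Several families known from the kidney held no call. Over all miRNAs 15.4% were called higher and 1.6% lower, so 0 calls in a set this small does not set it apart. In the miR-30 family, abundant in renal epithelium, 0 of 9 members were called, with differences from −0.82 to 0.46 and a median of −0.0039 (limma, smallest adjusted p = 0.24). miR-30a-5p, its leading member, stood at 2493, 3177 and 3618 against 3999.6, 2870.4 and 4759. The 7 measured arms of miR-10 and miR-196 had a median of −0.66 and those of miR-23, miR-27 and miR-24, also 7, one of −0.31. Both sets held 0 calls, although miR-27a-3p (−0.85 ± 0.35, limma adjusted p = 0.17) was called lower under all 3 rescalings, as were miR-27b-3p (−0.31 ± 0.23) and miR-30a-5p (−0.31 ± 0.22). miR-10a-5p was called lower under 2 of them. miR-204-5p, a renal epithelial miRNA, stood at 20.3, 61.4 and 110.9 against 15.3, 29.6 and 17.2 (1.36 ± 0.58, limma adjusted p = 0.18).

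Markers of other cells the captured areas could hold were compared as well. The erythroid (miR-144, miR-451, miR-486) and muscle (miR-1, miR-133, miR-206) sets had 0 measured members. The 4 measured leukocyte miRNAs summed to 316 to 685 in the proximal tubule libraries and 336 to 607 in the thick ascending limb libraries, the 3 endothelial ones to 1249 to 1825 and 1189 to 1651, and the 2 of the fibroblast set, from miR-199a, to 76.7 to 130.2 and 54.7 to 155. Smooth muscle and mesangial miR-143-3p and miR-145-5p summed to 6119 to 8034 against 4780.5 to 6094. None of these 11 miRNAs was called, beside 15.4% higher and 1.6% lower over all miRNAs. The summed values of all these sets but the last overlapped between the segments, as did the values of most single miRNAs. Medians of these sets ran from −0.45 to 0.50, and the member farthest from 0 was miR-221-3p of the endothelial set at −2.12 (limma, adjusted p = 0.17). Of the neural set only miR-9a-5p was measured, at −1.48 (limma, adjusted p = 0.23). The endothelial miR-126a-5p, at 0.04 on the deposited scale, was called lower after quantile normalization. The part of such cells in the differences was not tested beyond these values. No messenger RNA was measured, so the tubule markers used for capture could not be checked in these data.

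The number of calls depends on how the variance is modelled and on single animals. Without the variance trend limma called 0 miRNAs, with 45 at an unadjusted p below 0.05 and a smallest adjusted p of 0.053, against 53 at an unadjusted p below 0.05 in the reported fit. Without rat 1 only miR-192-5p was called, with 47 at an unadjusted p below 0.05, whereas 30 were called without rat 2 and 24 without rat 3.

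**Figure D5:**
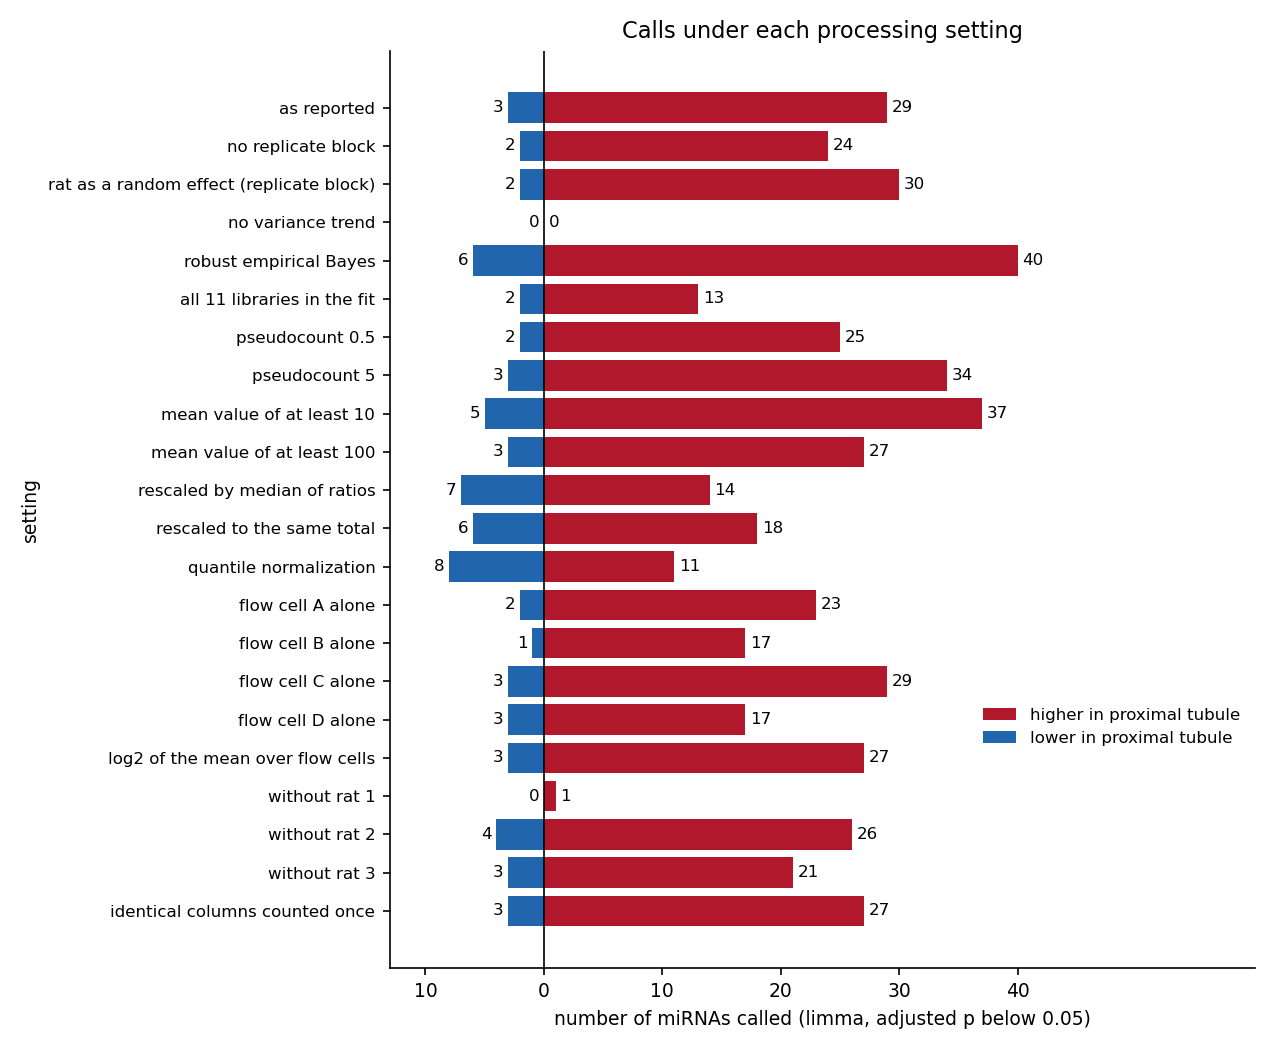
Number of miRNAs called higher (to the right) and lower (to the left) in the proximal tubule under each processing setting. The counts run from 0 without the variance trend to 46 with robust empirical Bayes, and from 1 to 30 when the animals were left out in turn.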

How the data were processed

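Small RNA libraries (TruSeq, 50 bp single-end reads, per the labels' protocols) were used as deposited. Each value is a normalized signal: the authors scaled read counts by TMM and filtered low ones, per their table's name. The submitters' processing notes name Partek 6.0, Bowtie2 2.2.5, Bowtie 1.0.0 and the build rn6. RefSeq sequences and positions are of GRCr8 and were matched by name only. Whether strand was used in counting is not given in the sources used here. The 4 pairs of reverse complements with identical values in every run do not separate the strands. miR-125b-5p and miR-3588, reverse complements over 22 bases, do not hold identical values.

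Steps between small values were taken as single reads (90.8% to 99.0% of values up to 30 reads within 0.03 reads). The rest were fractions, so no count test was run. Repeat runs were averaged on the log2(value + 1) scale, and n counts rats. limma 3.58.1 (R 4.3.3) fitted segment and rat on the 6 libraries with a variance trend, two-sided, with Benjamini-Hochberg adjustment over 188 miRNAs at 0.05. It was also run on simulated data whose noise followed a smooth trend with abundance. That run cannot show whether such a trend holds in these libraries. A group at 0 has a floor of 3 reads, pooled over all its runs. Rat is a block because both segments of a pair came from a single animal. Deviations of same-rat libraries correlated at 0.18, 0.17 and −0.23, and those of different rats at −0.34 to 0.29. By this measure same-rat libraries were not more alike than others.

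The text names up to 15 called miRNAs per direction by size, the 5 most abundant of each segment and members of family lists. Further calls and partner arms were named after their values were seen. The members and lists were chosen with earlier results of these data known. The alternatives covered the block, variance model, libraries fitted, pseudocount, filter, scaling, flow cell and each rat left out. Collecting duct and glomerulus libraries entered only the alternative on all 11 libraries.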

Additional observations from a re-analysis of the deposited data

How the results depend on the processing

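Numbers are calls in total, then higher and lower. They were 32 (29 and 3) as reported, 26 (24 and 2) without the replicate block, 32 (30 and 2) with rat as a random replicate block, 0 (0 and 0) without the variance trend, 46 (40 and 6) with robust empirical Bayes, 15 (13 and 2) with all 11 libraries, 42 (37 and 5) with a mean of at least 10, 21 (14 and 7) under the median of ratios, 24 (18 and 6) at the same total, 19 (11 and 8) after quantile normalization, 18 (17 and 1) on flow cell B alone, 20 (17 and 3) on flow cell D alone and 30 (27 and 3) with identical columns counted once, chosen after seeing the data. The filter at a mean of at least 10 left 122 miRNAs to test. A filter at 100 left 62, of which 27 were called higher and 3 lower. Leaving out a rat gave 1 to 30 calls, 1 to 26 higher and 0 to 4 lower. Since the fit without the variance trend called 0, no call held in every setting. The next count leaves out the fits with the fewest calls, those without the trend and without rat 1. Called in each of the 17 settings other than the filters, the fit without the trend and that without rat 1 were 8 higher miRNAs (miR-541-5p, miR-411-5p, miR-194-5p, miR-192-5p, let-7d-3p, miR-181b-5p, miR-28-3p and miR-3586-3p) and miR-92b-3p. Directions turned under the median of ratios for let-7c-5p (−0.13), let-7e-5p (−0.10), let-7i-5p (−0.26), miR-143-3p (−0.092), miR-181d-5p (−0.16), miR-200a-3p (−0.017), miR-25-3p (−0.46) and miR-92a-3p (−0.27). They turned at the same total for let-7i-5p (−0.093), miR-25-3p (−0.29) and miR-92a-3p (−0.11), and after quantile normalization for let-7c-5p (−0.0017), let-7e-5p (−0.40), let-7i-5p (−0.51), miR-127-3p (−0.041), miR-143-3p (−0.57), miR-191a-5p (−0.11), miR-22-3p (−0.33), miR-25-3p (−0.32), miR-26a-5p (−0.23) and miR-92a-3p (−0.29). On single flow cells they turned for miR-127-3p (A −0.14, B −0.40), miR-145-5p (B −0.020) and miR-25-3p (A −0.053, D −0.11). With a rat left out, miR-25-3p ranged from −0.35 to 0.62, let-7i-5p from −0.086 to 0.40, miR-200a-3p from −0.073 to 0.80 and miR-92a-3p from −0.10 to 0.49. The share of the 5 leading miRNAs in the proximal tubule was 63.5%, 64.2% and 60.1% on flow cells A, B and D, and the summed AAAGUGC family differed by 1.13 and 0.82 on A and B. The cause was not tested. Depth limits the low values: a miRNA at 0 in a segment can lie anywhere below the pooled floor of 0.314 in the proximal tubule or 0.234 in the thick ascending limb. In a shallow library it can lie higher. miR-1249, miR-300-3p and miR-342-5p rest on few reads.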

Other observations

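A few miRNAs outside the calls separated the segments or came close to the threshold, and they were picked after their values were seen. miR-101b-3p stood at 8.29, 13.8 and 18.95 in the proximal tubule against 0, 1.10 and 4.04 (2.68 ± 0.75, limma adjusted p = 0.052). miR-203b-3p stood at 22.1, 38.4 and 52.5 against 0.254, 12.1 and 14.5 (2.50 ± 0.79, limma adjusted p = 0.078). The 0.254 of rat 1 is less than 1 read, worth 2.14 to 5.87 in that library. Over 20 bases miR-203b-3p is the reverse complement of miR-203a-5p, so its reads too may belong to the other strand. Of the 7 miRNAs with every proximal tubule library below every thick ascending limb library, 5 were not called: miR-31a-5p (−2.10 ± 0.79), miR-340-5p (−1.996 ± 0.98), miR-199a-5p (−1.01 ± 0.62), miR-23a-3p (−0.49 ± 0.35) and miR-100-5p (−0.42 ± 0.32). miR-210-3p, known to be induced by low oxygen, was low in both segments, at 2.94, 3.09 and 8.75 against 18.4, 9.33 and 17.03 (−1.51 ± 0.75, limma adjusted p = 0.24), and its column is identical to that of its reverse complement miR-3574. miR-152-5p was at 0 in every proximal tubule run and, of the thick ascending limb libraries, was seen in rat 3 alone, the deepest one, at 10.5.

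miR-3557-5p, whose RefSeq sequence is the reverse complement of miR-378a-3p over 21 bases, ranked among the abundant miRNAs, at 5891, 7476 and 7887 in the proximal tubule and 4549, 2506 and 5433 in the thick ascending limb (0.82 ± 0.28, limma adjusted p = 0.10). miR-378a-3p itself was not analysed here, while miR-378a-5p and miR-3557-3p share identical values. miR-378a lies in the gene of a regulator of mitochondrial metabolism in mammals, so which of the names the reads belong to would need the strand.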
